A study of Mus musculus with 8 samples.

Results

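Clade B serpins are the serine protease inhibitors whose mouse gene symbols start with Serpinb. They were taken by that symbol alone, with pseudogenes kept and marked, which gave 28 genes of the 46983 in the count table. RNA of tail epidermis was sequenced from 8 mice aged 8 weeks, 1 library per mouse, to see what loss of NIPP1, a nuclear regulator of protein phosphatase 1 encoded by Ppp1r8, does to the epidermis. The 4 KO mice had the genotype K14-Cre/+ Ppp1r8 fl/- and the 4 CTR mice K14-Cre/+ Ppp1r8 fl/+. Every mouse therefore had the Cre transgene and 1 floxed allele. The second allele was a null allele in KO mice and a wild-type allele in CTR mice, whose keratinocytes thus keep 1 working copy after Cre has acted. The keratin 14 promoter is active in basal cells of the epidermis and hair follicle, so any cells in which Cre is silent would keep the floxed allele in both groups and the null allele in KO mice. Tail skin was held for 5 h at 4 °C in dispase (10 mg/ml) and the epidermis was lifted off the dermis, with no sorting of cells.

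A serpin presents a reactive centre loop as bait. When a target protease cuts the loop, the serpin folds it into its own core, and the protease is trapped in a covalent complex. The residues of the loop set which protease is caught, and the hinge next to it must be able to insert for inhibition to work. Clade B serpins lack a classical secretion signal and act largely inside cells, where they guard against stray lysosomal, granule and trypsin-like proteases. Stratified epithelia such as the epidermis make many of them, and in human skin loss of SERPINB7 or SERPINB8 causes keratosis or peeling.

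The libraries held 16696212 to 21571935 counts, and the totals did not differ between the groups beyond their spread (exact permutation test, two-sided, p = 0.8). Levels of Ppp1r8 were 35.4, 28.4, 34.3 and 47.4 normalised CPM (counts scaled to a common library size) in KO mice and 40.4, 34.7, 41.6 and 35.0 CPM in CTR mice (log2 fold change -0.06, adjusted p = 0.789). The part of the gene that Cre removes is not given in the labels, so these gene-level counts check nothing about the deletion. The tissue label could be checked: the summed level of 10 epidermal keratinocyte markers was 58041 to 75423 CPM in KO mice and 33973 to 38912 CPM in CTR mice, with 4 of the 10 called higher and 2 lower in KO mice. Most of that gap was Krt1 (18366 ± 4854 CPM in KO mice and 2488 ± 430.2 CPM in CTR mice) and Krt10 (31131 ± 3704 CPM in KO mice and 15650 ± 611 CPM in CTR mice), the keratins of the suprabasal layers, and the median log2 fold change of the 10 was 0.013. Markers of the hair shaft ran the other way, with a sum over 9 genes of 154 to 2051 CPM in KO mice and 3868 to 7412 CPM in CTR mice, and 8 of the 9 were lower in KO mice. Stress keratinocyte markers summed to 5855 to 6697 CPM in KO mice and 2902 to 3707 CPM in CTR mice, and 7 of 8 were higher in KO mice. These counts stand beside 11.5% called higher and 12.2% called lower in KO mice over all genes tested. Of the 7 stress markers, Stfa2 had enough counts in every library to pass the filter on low counts only in KO mice.

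The 4 Serpinb3 genes, mouse counterparts of the human squamous cell carcinoma antigens SERPINB3 and SERPINB4, are near copies of each other, and 2 of them moved in opposite directions. Their coding sequences matched at 93.1% of aligned bases between Serpinb3a and Serpinb3b, 89.57% between Serpinb3a and Serpinb3d and 87.66% between Serpinb3b and Serpinb3d. A stretch near the end of the coding sequence is shown because it has the most positions at which the 4 copies are not all alike. It was chosen among ungapped 75-base stretches that lie inside a single exon. It covers coding bases 995 to 1069 and lies in the region that encodes the reactive centre loop and its hinge. Each line runs 5′ to 3′ on the coding (minus) strand of GRCm38, and capitals mark the 33 bases at which not all of the copies are alike.
Serpinb3a, chr1:107046111-107046185: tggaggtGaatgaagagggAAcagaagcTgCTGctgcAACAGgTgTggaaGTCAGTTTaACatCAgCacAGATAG
Serpinb3b, chr1:107154464-107154538: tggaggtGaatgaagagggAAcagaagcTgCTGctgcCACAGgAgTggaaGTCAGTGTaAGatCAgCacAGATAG
Serpinb3c, chr1:107271721-107271795: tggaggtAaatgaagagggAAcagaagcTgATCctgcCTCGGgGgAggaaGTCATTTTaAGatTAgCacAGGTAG
Serpinb3d, chr1:107078288-107078362: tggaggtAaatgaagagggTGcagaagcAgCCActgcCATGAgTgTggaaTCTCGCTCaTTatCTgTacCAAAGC
In this stretch Serpinb3a differed from Serpinb3b at 4 bases and from Serpinb3d at 25 bases. In the stretch with the fewest such positions, Serpinb3a differed from Serpinb3b at 6 bases. The stretch shown is therefore not where these 2 copies differ most. A read is 75 bases long, and 91.91% of the 75-base windows of Serpinb3a, 97.72% of those of Serpinb3b, 97.41% of those of Serpinb3c and 99.12% of those of Serpinb3d occurred in no other gene. Most reads could therefore be told apart in principle, but how the submitters' counting treated reads with several matches is not given in the sources used here, so the values of the single copies are uncertain to that extent.

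The family was split rather than shifted one way. On chromosome 1, 12 clade B genes lie within 749.3 kb, and all of them passed the filter on low counts: 3 were higher in KO mice (Serpinb3a, Serpinb12 and Serpinb3d), 2 were lower (Serpinb7 and Serpinb3b) and 7 did not pass the test. On chromosome 13, 16 clade B genes lie within 1160.7 kb, and 6 passed the filter: 3 were higher in KO mice (Serpinb1a, Serpinb9 and Serpinb6a), 1 was lower (Serpinb6d) and 2 did not pass. A call means an adjusted p under 0.05 in edgeR's quasi-likelihood test with Benjamini-Hochberg adjustment over 15638 genes. Across those genes 23.7% were called, 11.5% higher and 12.2% lower in KO mice. Calls were therefore common in the whole table, and 9 of 18 tested clade B genes, or 6 higher and 3 lower, is to be read against those shares. The median log2 fold change (KO over CTR) was 0.04 over the chromosome 1 genes and 0.12 over the tested chromosome 13 genes, beside -0.0026 over all genes tested. The median size of the change, regardless of sign, was 0.52 on chromosome 1 and 0.76 on chromosome 13, beside 0.22 over all genes. The groups did not overlap for 8 of the 18 genes, against 26.2% of all genes tested. In bulk epidermis, fewer cells of a type and less RNA per cell cannot be told apart.

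**Figure D1:**
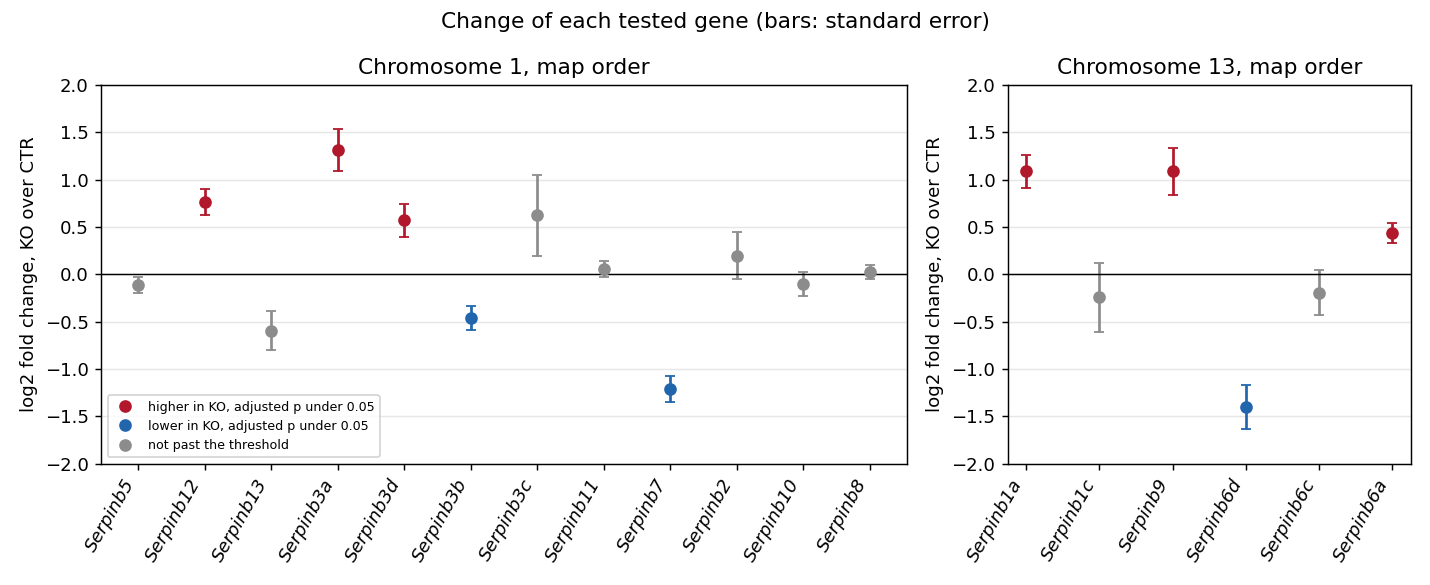
Log2 fold change, KO over CTR (vertical axis), of the 12 tested clade B serpin genes on chromosome 1 and the 6 on chromosome 13, in map order; bars are standard errors from the edgeR fit. Red points are higher and blue points lower in KO mice at an adjusted p under 0.05, grey points are not past it, and calls in both directions occur in each cluster, as with Serpinb3a at 1.31 and Serpinb3b at -0.46.

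The sum over the family changed little. All 28 genes together took 3004, 2894, 3093 and 2808 CPM in KO mice and 2570.0, 2599, 2987 and 2834 CPM in CTR mice, and these ranges overlapped. The share of the counts that this makes was 0.295% in KO mice and 0.275% in CTR mice on average. The chromosome 1 genes summed to 2778 ± 139 CPM in KO mice and 2620.5 ± 192 CPM in CTR mice (mean ± SD, n = 4 each, as in every such value here). The chromosome 13 genes were a much smaller pool, at 172 ± 17.8 CPM in KO mice and 127 ± 8.88 CPM in CTR mice, a ratio of 1.35, and each KO mouse was above every CTR mouse.

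**Figure D2:**
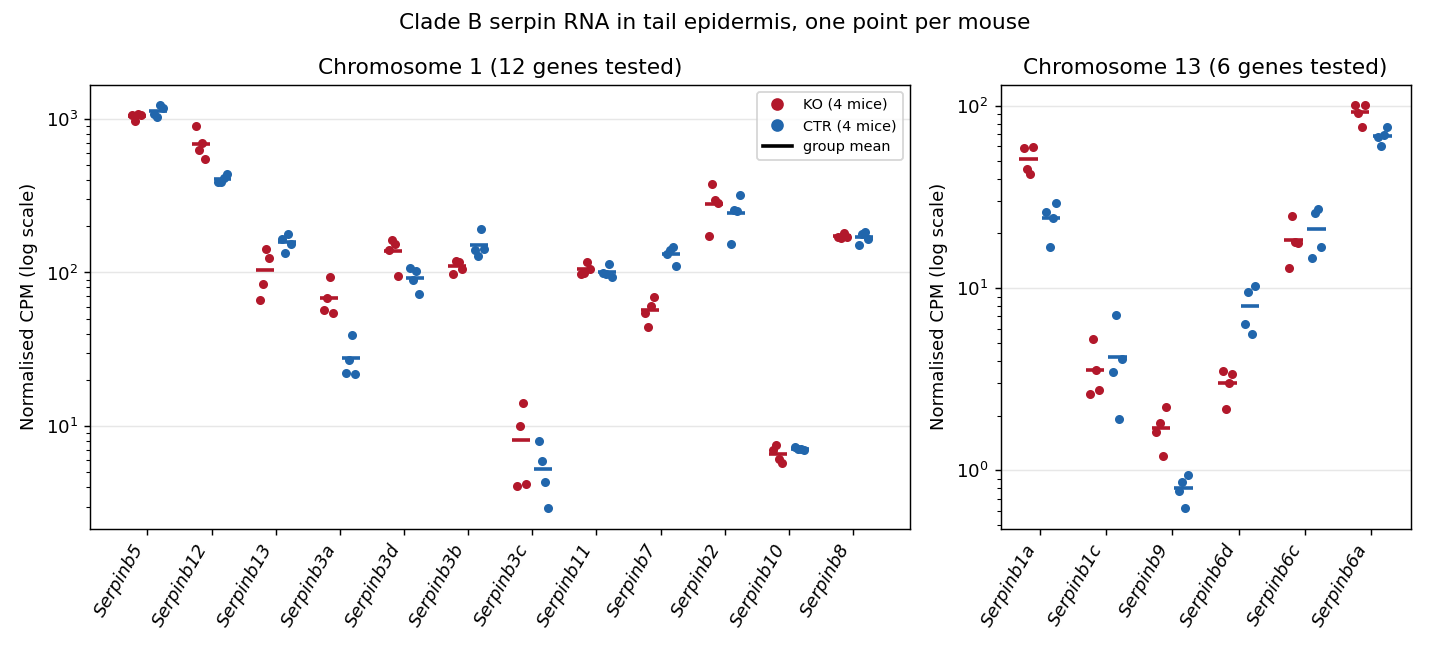
Normalised CPM (log scale) of each tested clade B serpin gene, KO left in red and CTR right in blue, 1 point per mouse and a line at the group mean; the left panel holds chromosome 1 and the right panel chromosome 13, each in map order. The KO and CTR points are fully apart for Serpinb12, Serpinb3a, Serpinb3b, Serpinb7, Serpinb1a, Serpinb9, Serpinb6d and Serpinb6a.

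Among the inhibitors of trypsin-like proteases, Serpinb12 rose and Serpinb11 did not pass the test. Serpinb12 (ENSMUSG00000059956, chr1:106934449-106957080, plus strand), a widely expressed inhibitor of trypsin-like serine proteases, had 895, 625, 694 and 546 CPM in KO mice and 388, 387, 413 and 435 CPM in CTR mice. Every KO mouse was above every CTR mouse, and the KO mice spread over a wider range. The means were 689.8 ± 149 CPM in KO mice and 406 ± 22.8 CPM in CTR mice, a 1.7-fold rise (log2 fold change 0.76, SE 0.14, adjusted p = 0.00415). It ran beside the higher levels of Krt1, Krt10 and the stress keratinocyte markers given above, whose part in the rise of Serpinb12, and of Serpinb3a, was not tested. Serpinb11 (ENSMUSG00000026327, chr1:107361198-107380475, plus strand), which in mice also inhibits trypsin-like proteases, had 98.2, 99.2, 117 and 105 CPM in KO mice and 99.5, 97.3, 113 and 93.9 CPM in CTR mice. These groups lay on top of each other (log2 fold change 0.05, SE 0.08, adjusted p = 0.671).

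Serpinb7 (ENSMUSG00000067001, chr1:107399655-107452689, plus strand), also called megsin, is the gene whose human counterpart is lost in Nagashima-type palmoplantar keratosis, and it fell. It had 54.8, 44.0, 60.6 and 69.4 CPM in KO mice and 132, 139, 147 and 111 CPM in CTR mice. No KO mouse reached the lowest CTR mouse. The means were 57.2 ± 10.7 CPM in KO mice and 132 ± 15.3 CPM in CTR mice, a 2.31-fold fall (log2 fold change -1.21, SE 0.14, adjusted p = 0.000595). Serpinb12 and Serpinb7 lie in the same cluster on the same strand and moved apart: the ratio of Serpinb12 to Serpinb7 CPM was 16.3, 14.2, 11.4 and 7.87 in KO mice and 2.94, 2.78, 2.82 and 3.92 in CTR mice. The fall of Serpinb7 ran beside the lower hair shaft sums given above, and the part of those cells in the result was not tested.

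Hurpin and maspin are keratinocyte serpins of the same end of the cluster. Serpinb13 (ENSMUSG00000048775, chr1:106980984-107001195, plus strand), or hurpin, an inhibitor of the lysosomal cysteine proteases cathepsin L and cathepsin K, had 66.4, 83.6, 142 and 124 CPM in KO mice and 166, 133, 177 and 152 CPM in CTR mice. The groups overlapped through KO 3, and the change did not pass the test (log2 fold change -0.60, SE 0.21, adjusted p = 0.0645). It passed with DESeq2 (adjusted p = 0.0168), without the filter on low counts (0.0418) and without KO 3 (log2 fold change -0.78, adjusted p = 0.0165). Serpinb5 (ENSMUSG00000067006, chr1:106861173-106883348, plus strand), or maspin, an epithelial serpin that does not act as a protease inhibitor, had 1063, 960.4, 1073 and 1061 CPM in KO mice and 1074, 1029, 1227 and 1173 CPM in CTR mice. It was the most abundant of the family and its groups overlapped (log2 fold change -0.12, SE 0.08, adjusted p = 0.338).

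The remaining single genes of chromosome 1 did not pass the test. Serpinb2 (ENSMUSG00000062345, chr1:107511423-107535478, plus strand), plasminogen activator inhibitor type 2, which blocks urokinase, had 172, 375, 295 and 282 CPM in KO mice and 154, 256, 251 and 319 CPM in CTR mice. Both groups were wide and overlapped (log2 fold change 0.20, SE 0.25, adjusted p = 0.589). Serpinb8 (ENSMUSG00000026315, chr1:107590006-107610484, plus strand), an inhibitor of the proprotein convertase furin, had 169, 168, 179.8 and 169.7 CPM in KO mice and 151, 177, 183 and 166 CPM in CTR mice (log2 fold change 0.02, SE 0.08, adjusted p = 0.867). Its KO values sat inside the CTR range. Serpinb10 (ENSMUSG00000092572, chr1:107529003-107549271, plus strand), annotated as a polymorphic pseudogene, had 7.02, 7.59, 6.11 and 5.77 CPM in KO mice and 7.27, 7.12, 7.05 and 6.97 CPM in CTR mice (log2 fold change -0.10, SE 0.12, adjusted p = 0.586). It shares 291 exon bases with Serpinb2 on the same strand, 8.34% of its exon length, so reads from that stretch cannot be given to either gene.

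Among the Serpinb3 copies, whose human counterparts inhibit cysteine and serine proteases, Serpinb3a rose and Serpinb3b fell. Serpinb3a (ENSMUSG00000044594, chr1:107045587-107052303, minus strand) had 56.9, 68.0, 93.9 and 54.7 CPM in KO mice and 22.1, 27.0, 39.3 and 21.9 CPM in CTR mice. The groups were apart, with means of 68.4 ± 18 CPM in KO mice and 27.6 ± 8.14 CPM in CTR mice, a 2.49-fold rise (log2 fold change 1.31, SE 0.22, adjusted p = 0.00312). Serpinb3b (ENSMUSG00000073602, chr1:107153940-107278361, minus strand) had 98.4, 119, 116 and 105 CPM in KO mice and 141, 129, 193 and 142 CPM in CTR mice. Each KO mouse was below every CTR mouse, a 1.38-fold fall (log2 fold change -0.46, SE 0.12, adjusted p = 0.0235), but the call was lost without KO 1 (adjusted p = 0.0501) or KO 4 (0.0606).

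The other copies were less clear. Serpinb3d (ENSMUSG00000058017, chr1:107078167-107083506, minus strand) had 139, 162, 154 and 94.2 CPM in KO mice and 108, 89.3, 102 and 72.1 CPM in CTR mice. It rose 1.48-fold (log2 fold change 0.57, SE 0.17, adjusted p = 0.0373), although KO 4 lay inside the CTR range. The call was lost without KO 1, KO 2, KO 3, CTR 2, CTR 3 or CTR 4, each left out alone (adjusted p from 0.0597 to 0.0938). Serpinb3c (ENSMUSG00000073601, chr1:107271201-107278371, minus strand), which shares 35 exon bases with the far end of Serpinb3b, was the scarcest copy, with 4.09, 10.1, 14.2 and 4.24 CPM in KO mice and 7.99, 5.97, 4.33 and 2.92 CPM in CTR mice (log2 fold change 0.62, SE 0.43, adjusted p = 0.314).

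Summed, so that the sharing of reads among the copies matters less, the 4 genes had 324 ± 55.1 CPM in KO mice and 277 ± 44.4 CPM in CTR mice, a ratio of 1.17. The change in the pool was thus small beside the change in its make-up. Serpinb3a made up 19.1%, 18.9%, 24.8% and 21.2% of the Serpinb3 counts in KO mice and 7.95%, 10.7%, 11.6% and 9.18% in CTR mice. Serpinb3b made up 33.0%, 33.1%, 30.7% and 40.7% in KO mice and 50.5%, 51.3%, 57.1% and 59.5% in CTR mice. Neither share overlapped between the groups. Serpinb3d made up 42.2 ± 4.6% in KO mice and 33.6 ± 4.23% in CTR mice, so that on average it was the leading copy in KO mice, where Serpinb3b led in CTR mice. The ratio of Serpinb3a to Serpinb3b counts was 0.578, 0.573, 0.807 and 0.520 in KO mice and 0.157, 0.209, 0.203 and 0.154 in CTR mice.

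**Figure D3:**
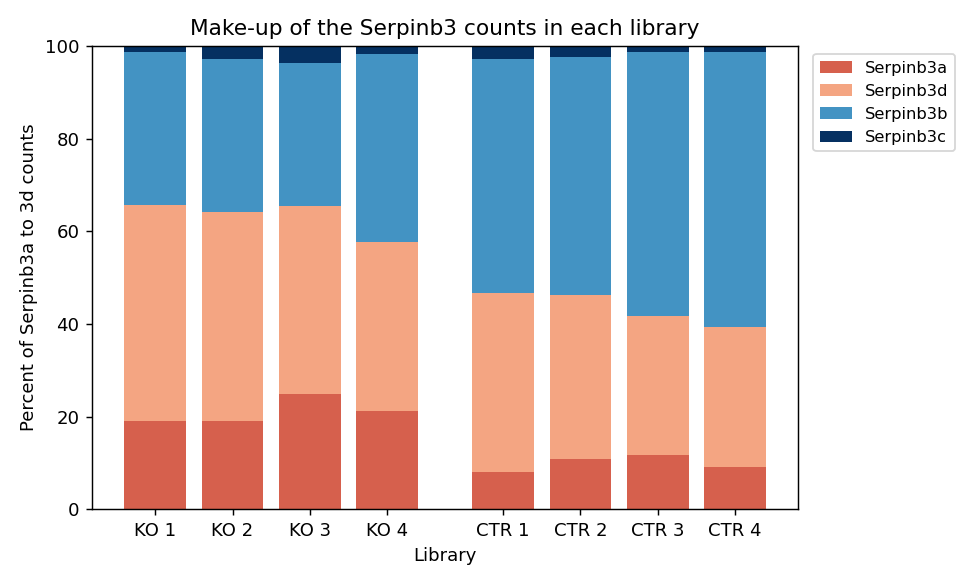
Percent of the counts of the 4 Serpinb3 copies (vertical axis) that each copy took in each library, the 4 KO libraries on the left and the 4 CTR libraries on the right. Serpinb3a takes 18.9% to 24.8% in KO mice and 7.95% to 11.6% in CTR mice, and Serpinb3b takes 30.7% to 40.7% in KO mice and 50.5% to 59.5% in CTR mice.

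The 250 bases before the start are shown for Serpinb3a and Serpinb3b because these copies differ little there yet moved in opposite directions. The sequences are from RefSeq (GRCm38.p6), minus strand, 5′ to 3′, and capitals mark the TATAAA letters. The Serpinb3b start lies 117247 bases inside the gene as GENCODE draws it.
Serpinb3a, chr1:107052304-107052553: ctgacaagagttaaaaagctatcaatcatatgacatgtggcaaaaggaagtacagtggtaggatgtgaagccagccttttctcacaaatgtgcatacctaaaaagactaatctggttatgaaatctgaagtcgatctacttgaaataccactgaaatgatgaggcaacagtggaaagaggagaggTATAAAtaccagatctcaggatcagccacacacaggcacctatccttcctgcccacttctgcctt
Serpinb3b, chr1:107161115-107161364: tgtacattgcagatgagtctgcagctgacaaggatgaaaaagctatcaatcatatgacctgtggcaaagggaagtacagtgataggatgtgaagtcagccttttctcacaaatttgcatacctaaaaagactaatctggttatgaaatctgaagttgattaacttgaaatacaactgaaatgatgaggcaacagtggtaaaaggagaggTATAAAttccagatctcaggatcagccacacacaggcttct
Aligned, they matched at 92.5% of 226 bases, and both held TATAAA, 65 bases before the start in Serpinb3a and 41 bases before it in Serpinb3b. Serpinb3a and Serpinb3d, which both rose, matched at 68.8% of 170 aligned bases.

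Upstream sequence was found in the RefSeq table for 25 of the 28 genes (all but Serpinb1a, Serpinb13 and Serpinb1-ps1) and was searched on both strands for the letters of motifs bound by factors active in keratinocytes. The AP-1 letters TGANTCA occurred in 7 of the 25, against 6.75% of 32851 upstream windows of the same length. All 7 were on chromosome 1 (Serpinb5, Serpinb12, Serpinb11, Serpinb7, Serpinb2, Serpinb10 and Serpinb8), where 1 of these genes rose, 1 fell and 5 did not pass the test. TATAAA occurred in 8 of the 25, against 12.4% of all windows. These were Serpinb12, Serpinb7, Serpinb2, Serpinb1c and the Serpinb3 copies, whose windows matched each other at 66.8% to 95.4% of aligned bases. The 8 are therefore not separate cases. In Serpinb12 the letters lay 220 bases before the start. The STAT motif, TTC and GAA parted by 3 bases, occurred in 2 of the 25 (Serpinb6a and Serpinb9c), against 7.02%, and the NF-kappaB motif in 0 of the 25, against 3.9%. The windows of Serpinb12 and Serpinb7 are shown because these genes moved in opposite directions and both carry the AP-1 letters 45 bases before the start. Capitals mark TGANTCA and TATAAA on either strand, the sequences are on the plus strand, and the Serpinb7 start in RefSeq lies 23034 bases inside the GENCODE gene.
Serpinb12, chr1:106934199-106934448: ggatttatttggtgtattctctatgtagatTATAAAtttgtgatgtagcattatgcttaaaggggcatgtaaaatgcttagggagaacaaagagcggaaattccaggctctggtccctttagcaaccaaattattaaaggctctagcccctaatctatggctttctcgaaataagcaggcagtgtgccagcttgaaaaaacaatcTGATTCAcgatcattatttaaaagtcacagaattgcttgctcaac
Serpinb7, chr1:107422439-107422688: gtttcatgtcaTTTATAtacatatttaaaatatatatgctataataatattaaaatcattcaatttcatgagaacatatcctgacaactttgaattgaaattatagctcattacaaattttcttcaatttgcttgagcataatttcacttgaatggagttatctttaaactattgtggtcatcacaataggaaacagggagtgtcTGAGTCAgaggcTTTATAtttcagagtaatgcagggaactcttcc
The presence of these letters is a description of the sequence and not a measure of binding.

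On chromosome 13, Serpinb1a and Serpinb9 were higher. Serpinb1a (ENSMUSG00000044734, chr13:32842092-32851185, minus strand), an inhibitor of neutrophil elastase, cathepsin G and proteinase 3, had 58.7, 45.3, 42.2 and 59.4 CPM in KO mice and 26.1, 16.8, 24.3 and 29.4 CPM in CTR mice. The groups were apart, with means of 51.4 ± 8.94 CPM in KO mice and 24.1 ± 5.30 CPM in CTR mice, a 2.13-fold rise (log2 fold change 1.09, SE 0.17, adjusted p = 0.00264). Serpinb9 (ENSMUSG00000045827, chr13:33003250-33017957, plus strand), the inhibitor of granzyme B, was scarce, with 31, 36, 24 and 42 counts in KO mice and 15, 18, 10 and 20 counts in CTR mice. That is 1.62, 1.82, 1.20 and 2.22 CPM in KO mice and 0.768, 0.866, 0.619 and 0.941 CPM in CTR mice. Every KO mouse was above every CTR mouse, and the rise was 2.12-fold (log2 fold change 1.09, SE 0.25, adjusted p = 0.0126).

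Immune cells also express these genes, so their markers are given beside them. Neutrophil markers (8 genes) summed to 4.71 to 5.16 CPM in KO mice and 5.37 to 12.8 CPM in CTR mice, with Ngp and Ltf at 0 counts in every library and Ly6g and Elane at 3 counts or fewer. Macrophage and monocyte markers (8 genes) summed to 19.2 to 25.1 CPM in KO mice and 14.8 to 23.7 CPM in CTR mice. Of the macrophage list 4 genes were tested and 1, Ccr2, was higher, at 1.49 ± 0.529 CPM in KO mice and 0.251 ± 0.149 CPM in CTR mice (log2 fold change 2.57, adjusted p = 0.00314). Of the neutrophil list 2 genes were tested and 0 were called by edgeR, with 1 (Mpo) lower at an unadjusted p under 0.05 and with DESeq2. Mpo had 1.48 ± 0.885 CPM in KO mice and 4.74 ± 4.01 CPM in CTR mice (log2 fold change -1.65, adjusted p = 0.0604), and the other, Cxcr2, had 3.07 ± 0.928 CPM in KO mice and 2.4 ± 0.592 CPM in CTR mice. The lower neutrophil sums of KO mice thus rested on Mpo. T and natural killer cell markers (8 genes) summed to 13.3 to 25.0 CPM in KO mice and 7.32 to 11.6 CPM in CTR mice. All 3 that were tested (Trbc2, Cd3e and Trdc) were higher, and Ncr1 was at 0. Cd3e and Trdc, like Ccr2 above, had enough counts to pass the filter only in KO mice. These genes could therefore enter the test only as rises, so their direction was set by the filter. Langerhans cell markers (7 genes) summed to 388 to 546 CPM in KO mice and 283 to 352 CPM in CTR mice, with 6 of 7 higher. Over all genes tested, 11.5% were called higher and 12.2% lower in KO mice. The part of these cell types in the rise of Serpinb9 and Serpinb1a was not tested.

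The Serpinb6 copies went both ways. Serpinb6a (ENSMUSG00000060147, chr13:33917918-34002794, minus strand), an intracellular inhibitor of cathepsin G and trypsin-like proteases, had 101, 91.1, 76.6 and 101 CPM in KO mice and 67.5, 60.1, 69.4 and 76.3 CPM in CTR mice. The lowest KO mouse stood just above the highest CTR mouse, and the rise was 1.35-fold (log2 fold change 0.44, SE 0.10, adjusted p = 0.0147). Exons on the opposite strand overlap it (Nqo2 over 762 bases, 1110046J04Rik over 584 and Ripk1 over 241). Libraries were stranded, but the strand setting of the counting is not given in the sources used here, so reads of these genes cannot be kept fully apart. Serpinb6d (ENSMUSG00000047889, chr13:33661405-33671581, plus strand) had 3.51, 2.17, 3.0 and 3.39 CPM in KO mice and 6.35, 9.53, 5.63 and 10.3 CPM in CTR mice. No KO mouse reached the lowest CTR mouse, a 2.64-fold fall that was the strongest among the 18 tested members (log2 fold change -1.40, SE 0.23, adjusted p = 0.00319).

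Serpinb6c (ENSMUSG00000052180, chr13:33879816-33905708, minus strand) had 12.9, 25.0, 18 and 17.8 CPM in KO mice and 14.6, 25.8, 27.3 and 16.8 CPM in CTR mice. Its groups overlapped (log2 fold change -0.20, SE 0.24, adjusted p = 0.577). The pool of 5 Serpinb6 genes was 115 ± 10.5 CPM in KO mice and 97.8 ± 6.99 CPM in CTR mice, of which Serpinb6a took 80.2 ± 4.6% in KO mice and 69.9 ± 6.14% in CTR mice. Serpinb6d took 2.64 ± 0.565% in KO mice and 8.12 ± 2.18% in CTR mice, so the pool held relatively more Serpinb6a and less Serpinb6d in KO mice. Serpinb1c (ENSMUSG00000079049, chr13:32881434-32898211, minus strand), a copy 89.74% identical to Serpinb1a in its coding sequence, had 2.62, 5.26, 3.56 and 2.75 CPM in KO mice and 3.48, 7.17, 1.92 and 4.10 CPM in CTR mice. It did not rise with Serpinb1a by the test (log2 fold change -0.24, SE 0.36, adjusted p = 0.660), and its small difference changed sign between alternative analyses (log2 fold change -0.49 to 0.15).

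The other 10 genes of chromosome 13 did not pass the filter and were not tested with the rest. Serpinb6e had 8, 27, 37 and 6 counts in KO mice and 2, 7, 5 and 5 counts in CTR mice, 78 counts in KO mice and 19 in CTR mice in all, and the KO libraries fell into a higher and a lower pair. Without the filter, over 26685 genes, it was called higher (log2 fold change 2.0, adjusted p = 0.0258). Serpinb9b had 0 counts in all KO mice and 1, 3, 2 and 4 counts in CTR mice, 10 in all. Its CTR level was 3.33 times a floor of 3 counts over the KO group, a figure that takes the 10 CTR counts as exact. Without the filter its adjusted p was 0.0307. Serpinb6b had 13 counts in KO mice and 15 in CTR mice, Serpinb1b had 8 in KO mice and 4 in CTR mice, Serpinb9e had 0 in KO mice and 2 in CTR mice, and the pseudogene Serpinb1-ps1 had 2 in KO mice and 0 in CTR mice. Serpinb9c, Serpinb9d, Serpinb9f and Serpinb9g had 0 counts in all 8 libraries. In Serpinb9f 34.49% and in Serpinb9g 55.1% of 75-base windows occur in no other gene, so a count that leaves out reads with several matches could miss them. Over a whole library, 3 counts correspond to 0.141 to 0.186 CPM.

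Levels of different genes were compared per kilobase of exon (RPKM, the CPM divided by exon length). In both groups Serpinb5 had rank 1, at 378 ± 19.3 RPKM in KO mice and 409 ± 32.9 RPKM in CTR mice, and Serpinb12 had rank 2, at 276 ± 59.8 RPKM in KO mice and 163 ± 9.11 RPKM in CTR mice. Their ranges touched in KO mice, where Serpinb12 reached 358 RPKM and Serpinb5 ran from 349 to 390.4 RPKM, and were apart in CTR mice. Serpinb2 had rank 3, at 119.6 ± 35.5 RPKM in KO mice and 104 ± 29.0 RPKM in CTR mice. Behind it in CTR mice came Serpinb13 (94.0 ± 11.3 RPKM), Serpinb3b (89.6 ± 16.9), Serpinb3d (76.2 ± 12.9) and Serpinb7 (67.6 ± 7.84), and each of these overlapped the next. Among the 18 tested genes Serpinb7 had rank 10 in KO mice, at 29.2 ± 5.45 RPKM, and rank 7 in CTR mice. Serpinb3a had rank 8 in KO mice, at 41.9 ± 11 RPKM, and rank 10 in CTR mice, at 16.9 ± 4.99 RPKM. The tested chromosome 13 genes were all at 22.3 RPKM or less on average in KO mice and 15.2 RPKM or less in CTR mice, with Serpinb1a leading in KO mice, Serpinb6c leading in CTR mice and Serpinb9 last of the tested genes in both groups, at 0.492 ± 0.122 RPKM in KO mice and 0.229 ± 0.0399 RPKM in CTR mice.

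**Figure D4:**
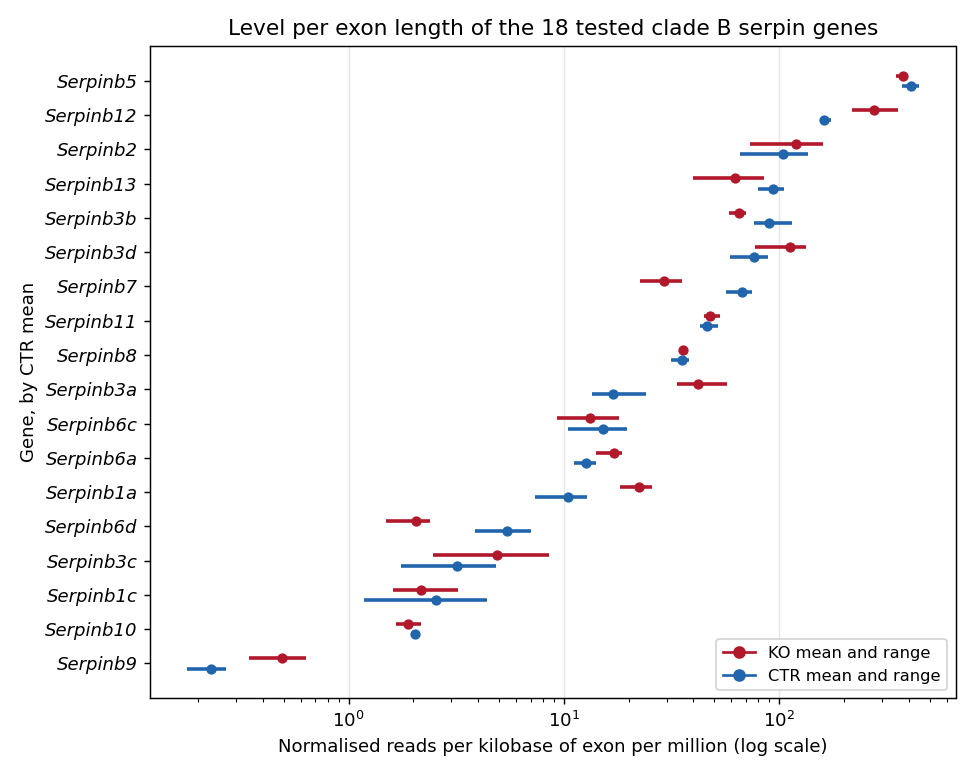
RPKM (normalised CPM per kilobase of exon; log scale, horizontal axis) of the 18 tested clade B serpin genes, ordered by the CTR mean; points are means and bars the range over 4 mice, KO above in red and CTR below in blue. Serpinb5 leads at 378 in KO mice and 409 in CTR mice, and Serpinb7 sits at 29.2 in KO mice, against 67.6 in CTR mice.

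Proteases that clade B serpins may meet were called in a share near that of all genes. Of 32 listed proteases 23 were tested, 5 were higher in KO mice and 0 were lower. Over all genes 11.5% were called higher and 12.2% lower, 23.7% in either direction. The median log2 fold change of the tested proteases was 0.11. At an unadjusted p under 0.05 in edgeR's test 3 were lower, and with DESeq2 1 was lower. The 5 were the inflammatory caspases Casp1 and Casp4, the lysosomal cathepsins Ctss and Ctsk, and the kallikrein Klk5. Casp4 and Ctsk passed the filter only through KO mice, so the count of 5 higher and 0 lower depends in part on the filter. Casp1 had 26.1, 15.9, 12.4 and 8.31 CPM in KO mice and 5.22, 6.93, 5.63 and 4.61 CPM in CTR mice (log2 fold change 1.48, adjusted p = 0.00801). Casp4 had 0.944, 3.03, 1.05 and 1.22 CPM in KO mice and 0.358, 0.770, 0.680 and 0.188 CPM in CTR mice (log2 fold change 1.65, adjusted p = 0.0367), a call lost without KO 2 (log2 fold change 1.12, adjusted p = 0.0902) and without KO 4, CTR 1, CTR 3 or CTR 4. Both caspases were higher in every KO mouse than in any CTR mouse. Casp4, with 7, 16, 11 and 4 counts in CTR mice, had enough counts to pass the filter only in KO mice. Its entry into the test thus rested on the KO mice. Ctss, the cathepsin of antigen-presenting cells, had 5.87, 4.30, 6.21 and 3.92 CPM in KO mice and 2.10, 1.68, 2.47 and 2.82 CPM in CTR mice (log2 fold change 1.16, adjusted p = 0.00547). Klk5, which starts the protease cascade that sheds corneocytes, had 198, 148, 175 and 167 CPM in KO mice and 97.8, 99.8, 127 and 146 CPM in CTR mice (log2 fold change 0.55, adjusted p = 0.0181), and its call was lost without CTR 1 (adjusted p = 0.0504). Ctsk, named after its values were seen, had 0.959 ± 0.655 CPM in KO mice and 0.227 ± 0.0761 CPM in CTR mice (log2 fold change 2.02, adjusted p = 0.0170, and 1.43 with adjusted p = 0.0198 without KO 1). Ctsk had enough counts to pass the filter only in KO mice, so it could enter the test only as a rise.

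Of the cathepsins that Serpinb13 blocks, Ctsk was called, as given above, and Ctsl did not pass the test. Ctsl, Plau and Furin were also named after their values were seen. Ctsl had 608 ± 79.0 CPM in KO mice and 501 ± 42.2 CPM in CTR mice (log2 fold change 0.28, adjusted p = 0.0800), and passed with DESeq2 (0.0388) and without KO 3 (0.0246). Plau, the urokinase blocked by Serpinb2, had 64.6 ± 10.2 CPM in KO mice and 73.9 ± 8.11 CPM in CTR mice (adjusted p = 0.260). Furin, the target of Serpinb8, had 166 ± 13.8 CPM in KO mice and 163 ± 10.8 CPM in CTR mice (adjusted p = 0.833). The granule proteases were at the limit of detection: Ctsg and Gzma had 0 counts in every library, Elane and Gzmb had 3 or fewer in each, and Prtn3, which encodes proteinase 3, had 3, 7, 2 and 5 counts in KO mice and 4, 6, 0 and 4 in CTR mice. The RNA of these 5 granule proteases was thus at or near 0 in both groups.

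Of 22 other epidermal inhibitors, regulators and cytokines that share this setting, 20 were tested, 9 were higher in KO mice and 2 were lower, beside 11.5% higher and 12.2% lower over all genes (the lower ones, named after their values were seen, were Spint1 at a log2 fold change of -0.38 and Hdac1 at -0.48, the Hdac1 call being lost without KO 4, CTR 2 or CTR 3), with a median log2 fold change of 0.24. Stfa2, a stefin that inhibits cysteine cathepsins and is also 1 of the 8 stress keratinocyte markers, had 5.60 ± 3.28 CPM in KO mice and 0.813 ± 0.385 CPM in CTR mice (log2 fold change 2.78, adjusted p = 0.00348). Stfa2, which is among the 9, had 9, 11, 16 and 27 counts in CTR mice. Only in KO mice did it have enough counts in every library to pass the filter. Slpi, a secreted inhibitor of leukocyte proteases, had 13.5 ± 6.13 CPM in KO mice and 2.91 ± 0.692 CPM in CTR mice (log2 fold change 2.21, adjusted p = 0.00181). Il1f6, which encodes the cytokine interleukin-36 alpha, had 31.8 ± 9.09 CPM in KO mice and 12.1 ± 2.72 CPM in CTR mice (log2 fold change 1.39, adjusted p = 0.00226). These 3 did not overlap between the groups. Wfdc12, a whey acidic protein domain inhibitor, had 176 ± 73.5 CPM in KO mice and 83.8 ± 17.5 CPM in CTR mice (log2 fold change 1.07, adjusted p = 0.0257), but lost its call in a robust fit (adjusted p = 0.072) and without KO 1, KO 4, CTR 2, CTR 3 or CTR 4.

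The other clades of the superfamily gave 1 call. Of 40 serpin genes outside clade B 21 were tested, 0 were higher and 1 was lower in KO mice, beside 11.5% and 12.2% of all genes, with a median log2 fold change of 0.07 and a median size of 0.32. At an unadjusted p under 0.05 in edgeR's test 0 were higher and 1 was lower, and DESeq2 gave the same counts. The 1 call was Serpina1e, named after its values were seen, one of a group of near-identical genes and so uncertain, at 0.241 ± 0.164 CPM in KO mice and 1.02 ± 0.637 CPM in CTR mice (log2 fold change -2.05, adjusted p = 0.0236). This call was lost without KO 4 (0.0621) or CTR 2 (log2 fold change -1.51, adjusted p = 0.0594). Serpina1e had enough counts to pass the filter only in CTR mice, so it could enter the test only as a fall. The most abundant, Serpina3j, had 1003 ± 287 CPM in KO mice and 749.9 ± 276 CPM in CTR mice (adjusted p = 0.249, and 0.0417 without CTR 2), and Serpina3b had 509.8 ± 211 CPM in KO mice and 555 ± 119.9 CPM in CTR mice (adjusted p = 0.760). Whether clade B differs from the other clades was not tested.

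The genes that surround the clusters, within 500 kb of their ends, were also read from the fit. Around the chromosome 1 cluster, all 4 neighbouring protein-coding genes were tested and 0 were called, by edgeR, by DESeq2 or at an unadjusted p under 0.05. The nearest, Vps4b, a sorting ATPase gene 64445 bases from the cluster, had 191 ± 6.46 CPM in KO mice and 185 ± 5.06 CPM in CTR mice (log2 fold change 0.04, adjusted p = 0.639). Around and within the chromosome 13 cluster, 8 of 11 neighbours were tested, 3 were higher and 1 was lower in KO mice, beside 11.5% higher and 12.2% lower over all genes. Ripk1, a kinase of cell death signalling, had 34.0 ± 2.41 CPM in KO mice and 25.5 ± 2.91 CPM in CTR mice (log2 fold change 0.41, adjusted p = 0.0128). Bphl, a hydrolase gene, had 22.5 ± 1.27 CPM in KO mice and 15.1 ± 1.46 CPM in CTR mice (log2 fold change 0.57, adjusted p = 0.00304). Wrnip1, a DNA replication ATPase gene, had 37.0 ± 3.12 CPM in KO mice and 29.8 ± 1.66 CPM in CTR mice (log2 fold change 0.31, adjusted p = 0.0238), and Tubb2b, a beta-tubulin gene, had 7.89 ± 1.09 CPM in KO mice and 10.8 ± 1.2 CPM in CTR mice (log2 fold change -0.45, adjusted p = 0.0408). The Wrnip1 call was lost without KO 1 (adjusted p = 0.0583), CTR 3 or CTR 4, and the Tubb2b call with library totals as the only scaling (0.051), without the filter (0.0522) and without KO 2, KO 4, CTR 2, CTR 3 or CTR 4. Serpinb6a and Ripk1, which both rose, share 241 exon bases on opposite strands.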

How the data were processed

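The deposited table holds raw read counts per Ensembl gene for 8 libraries, whole numbers that the authors did not normalise. Per the labels' protocols, 1 microgram of RNA per mouse went into a stranded poly-A kit, and single reads of 75 bp were taken. The submitters' processing notes name the build GRCm38, the aligners STAR 2.4.1d and Bowtie2 2.2.4, the counter featureCounts 1.4.6, and also edgeR 3.8.6, cutadapt 1.7.1, bedtools 2.17.0, Cufflinks 2.1.1 and SAMtools 1.1. The annotation release, strand setting and handling of reads with several matches are not given in the sources used here.

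Symbols and positions came from GENCODE M21 (46488 of 46983 identifiers found). Counts were tested in R 4.3.3 with edgeR 4.0.16 (glmQLFit, glmQLFTest, two-sided, group as the only term, TMM scaling), over the 15638 genes kept by filterByExpr, with Benjamini-Hochberg adjustment and a threshold of 0.05. The fit was also run on data simulated from these counts. CPM values use TMM-scaled library sizes, and RPKM divides them by exon length. Coding sequences were compared with Biopython 1.88 and MAFFT 7.526. Alternatives were DESeq2 1.42.0, other scalings, a robust fit, other filters and leaving out each mouse. Replicates are separate mice, numbered in the order of the samples, and 3 counts set the floor of detection. Within-group library pairs all differed by more than sampling noise (chi-square per degree of freedom 14.2 to 60.5). Floors cover counting error only, since reads carry no molecular identifiers. The labels give no batch, sex or litter, so no value within a batch could be computed. By their counts all 8 mice were female. The Y chromosome genes Ddx3y, Kdm5d, Uty and Eif2s3y had 0 counts in every library. Xist had 330 to 574 CPM in KO mice and 647 to 994 CPM in CTR mice.

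All clade B genes are accounted for. From each other list up to 4 called genes averaging 1 CPM or more were named by size of change, filled up with the most abundant where fewer than 2 were called, and of the neighbouring genes all called ones and the nearest. The members and lists were chosen with earlier results of these data known. The marker Krt85 was not analysed here.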

Additional observations from a re-analysis of the deposited data

Results flagged for a closer look

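In 9 of 82 groups of 4 mice checked, 1 mouse stood far from the others, its gap to the nearest divided by the range of the group being above the critical value for 4 samples (Dixon's test). Chance alone flags about 1 in 20 groups. Among clade B serpins, Serpinb8 in KO 3 was flagged (0.858, with 179.8 CPM against 168 to 169.7 CPM in the other KO mice), as was Serpinb5 in KO 2 (0.891, with 960.4 CPM against 1061 to 1073 CPM). Among proteases, Casp4 in KO 2 was flagged (0.869, with 3.03 CPM against 0.944 to 1.22 CPM), and its call was lost without that mouse. Ctsk in KO 1 was flagged as well (0.935, with 1.94 CPM against 0.601 to 0.688 CPM). Among the other serpins, Serpina1e in CTR 2 was flagged (0.86, with 1.97 CPM against 0.615 to 0.804 CPM), and its call too was lost without that mouse. Among neighbouring genes, the flags were Vps4b in KO 3 (0.879, with 180.9 CPM against 193 to 195 CPM), Wrnip1 in KO 1 (0.892, with 41.6 CPM against 35.2 to 35.9 CPM), Wrnip1 in CTR 4 (0.869, with 27.3 CPM against 30.4 to 30.8 CPM) and Ripk1 in CTR 1 (0.859, with 29.8 CPM against 23.5 to 24.4 CPM). No flagged value belongs to a clade B gene that passed the test.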

How the results depend on the processing

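Serpinb12, Serpinb3a, Serpinb7, Serpinb1a, Serpinb9, Serpinb6d and Serpinb6a kept their direction and their call in all 15 alternatives (other scalings, DESeq2, a robust fit, other filters, and each mouse left out). No called clade B gene changed sign in any alternative. The same held for the called genes named from the protease, inhibitor and regulator, other serpin and neighbour lists. Genes named only as cell type markers, such as Krt1, Krt10 and Ccr2, were not followed through the alternatives. Leaving out 1 mouse at a time gave 2 to 3 clade B genes of chromosome 1 higher and 1 to 3 lower in KO mice, and 3 higher and 1 lower on chromosome 13 throughout. The low value of 1 on chromosome 1 came without KO 1 and without KO 4, where Serpinb3b dropped out. Without the filter on low counts, the lower calls on chromosome 13 numbered 2, adding Serpinb9b, and the higher calls 4, adding Serpinb6e. DESeq2 and the fit without a filter each gave 3 lower calls on chromosome 1, adding Serpinb13. Over all genes the count of calls was 3528 to 4306 in the settings that keep all mice and 2589 to 4370 with a mouse left out. Casp4 fell below the stricter filter and has no value there. No paired analysis was possible because the labels give the mice no replicate numbers and tie no KO mouse to a CTR mouse by litter, day or batch. Precision is set by 4 mice a group and, for Serpinb9 and the untested genes, by low counts.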

Other observations

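Melanocyte markers (5 genes) summed to 295 to 512 CPM in KO mice and 202 to 311 CPM in CTR mice, and sebaceous gland markers (6 genes) to 6201 to 8946 CPM in KO mice and 3956 to 5373 CPM in CTR mice. Mast cell markers (6 genes) summed to 8.84 to 17.1 CPM in KO mice and 10.1 to 23.0 CPM in CTR mice, fibroblast and dermis markers (6 genes) to 17.5 to 56.1 CPM in KO mice and 33.8 to 52.7 CPM in CTR mice, and endothelial markers (4 genes) to 1.68 to 2.17 CPM in KO mice and 1.79 to 4.23 CPM in CTR mice. Their part in the clade B values was not tested.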
